A study of Mus musculus with 7 samples.

Results

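Transcript levels of 10 myeloid transcription factors were examined in 7 mouse libraries labelled granulocytes. The factors were Cebpa, Cebpb, Cebpd, Cebpe, Spi1, Gfi1, Irf8, Runx1, Klf2 and Mxd1. They were chosen by name as regulators of granulocyte fate and maturation, and all 10 were found by Ensembl identifier among 51789 genes of the deposited count table. Granulocytes are the white blood cells with granules and lobed nuclei, namely neutrophils, eosinophils and basophils. The libraries were 3 labelled Alox15 KO and 4 labelled Alox15 WT, all marked untreated. Alox15 encodes arachidonate 15-lipoxygenase, which adds oxygen to polyunsaturated fatty acids. The kit reads polyA RNA near its 3′ end, so 1 transcript gives tags from 1 place and levels were not divided by length. The sources used here do not give the strain, age, tissue of origin, sorting or deleted part of Alox15. No label ties a replicate to its own animal, so each p-value rests on the spread among libraries, and part of that spread may be technical.

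Granulocytes form in bone marrow from progenitors that are set on the myeloid path by PU.1, the product of Spi1, together with RUNX1 and C/EBPα. C/EBPε then drives the making of secondary granules, while GFI1 favours the neutrophil path and IRF8 the monocyte and dendritic cell path. C/EBPβ takes over from C/EBPα when granulocytes are made under stress, and MXD1 is known for its part in the exit from the cell cycle as cells mature.

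Neutrophil transcripts were present in every library, but the libraries differed widely. The 12 mature neutrophil markers, which include the chemokine receptor gene Cxcr2 and the gelatinase gene Mmp9, summed to 7001, 5798 and 741 CPM (CPM are counts scaled to a common library size) in Alox15 KO replicates 1 to 3. The sums in Alox15 WT replicates 1 to 4 were 10100, 976, 3999 and 3405 CPM. KO 3 and WT 2 were thus low in neutrophil transcripts, and 12 T and NK cell markers summed to 1042 CPM in KO 3 and 727 CPM in WT 2, against 339 to 726 CPM in the other 5 libraries. In bulk RNA, fewer cells of a type and less RNA per cell cannot be told apart, for these sums and for each level below. Of the 5 eosinophil markers, the defining granule gene Epx had no count in any library, while Siglecf reached 11.4 CPM and Ccr3 5.98 CPM, both in WT 1. Of the 5 basophil and mast cell markers, Mcpt8, Fcer1a, Ms4a2 and Gata2 had no count and Cpa3 ran from 1.79 to 24.7 CPM. The T and NK cell sum exceeded the neutrophil sum in KO 3, and the proliferation gene Top2a stood at 655 to 1220 CPM in KO and 599.7 to 1184 CPM in WT, so the cells are called granulocytes here by their label. Alox15 itself had 1 count in KO 1 and 0 in the other 6 libraries, so it does not check the genotype labels, also because a 3′ tag may lie outside the deleted part. Xist stood at 382 CPM in KO 2 and 102 CPM in KO 3 and at 0.896 to 6.11 CPM elsewhere, and the Y-linked Ddx3y at 0.306 and 0.195 CPM in those libraries and 19.3 to 119 CPM elsewhere. KO 2 and KO 3 also carry another stem in their sample descriptions than the remaining 5. The stem and the sex-linked transcripts coincide in full and cannot be told apart. Both separate KO 2 and KO 3 from WT, so genotype is separated from them through KO 1 alone, which shares the stem and the sex-linked pattern of WT. Total counts ran from 3228292 to 5657192 per library, and 3 counts stood for 0.530 to 0.929 CPM.

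The members spanned a wide range of levels. Ordered by the median over the 7 libraries, Klf2 was highest at 736 CPM, followed by Mxd1 (422 CPM), Spi1 (219.9 CPM), Cebpb (148 CPM), Cebpd (93.2 CPM), Runx1 (77.8 CPM), Irf8 (60.6 CPM), Gfi1 (29.7 CPM), Cebpa (5.01 CPM) and Cebpe (1.32 CPM). Mxd1 exceeded Spi1 in all 7 libraries, Irf8 exceeded Gfi1 in all 7, and Cebpa exceeded Cebpe in all 7. The neighbours Spi1 and Cebpb were not separated beyond their spread, since Spi1 was higher in 5 of 7 libraries. Cebpd was above Runx1 in 4 of 7 libraries and Runx1 above Irf8 in 5 of 7.

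**Figure D1:**
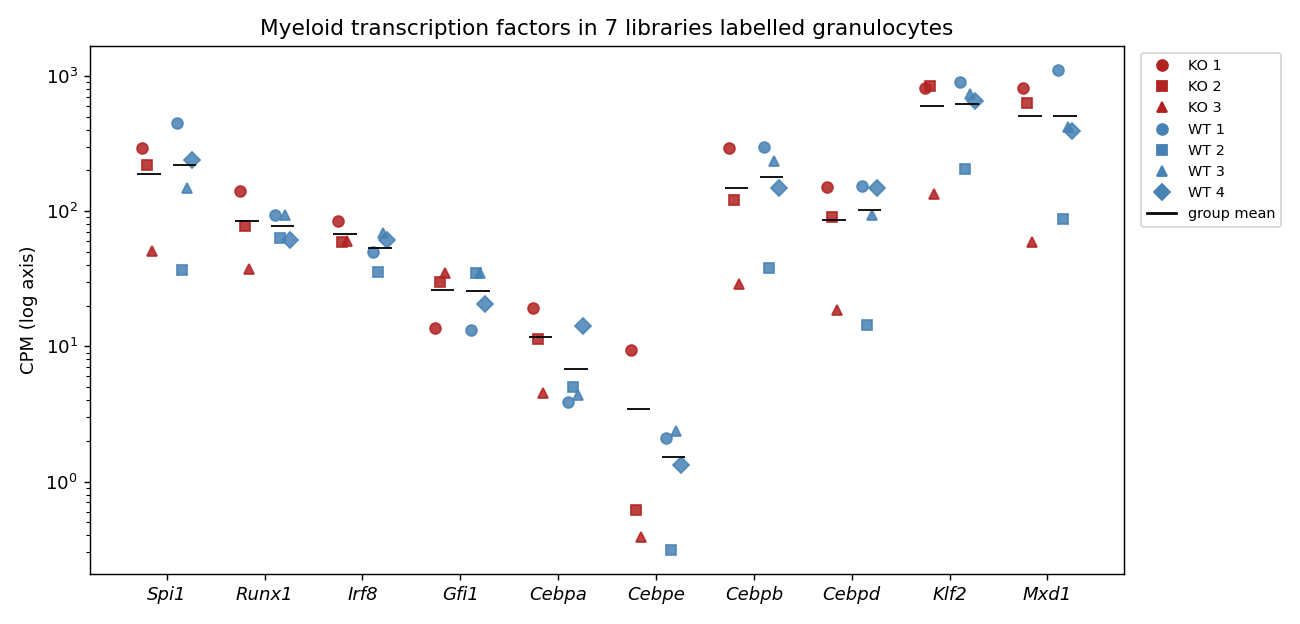
CPM of each factor on a log axis, by library, with Alox15 KO (red) left of Alox15 WT (blue) and a bar at the group mean. KO 3 and WT 2 lie far below the others for Spi1, Cebpb, Cebpd, Klf2 and Mxd1, Irf8 varies least, and the groups overlap for all 10 factors.

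No factor passed the test of Alox15 KO against Alox15 WT, given the spread between libraries. Of the 9 members that passed the filter on low counts, 0 were called by edgeR's quasi-likelihood test at a Benjamini-Hochberg adjusted p under 0.05, where 0 of 12506 genes were called (0%). DESeq2 called 0 members and 1 gene of all tested (0.008%), the pseudogene Impdh2-ps, which is named here because it was the single call. At an unadjusted p under 0.05 edgeR had 0 members and 154 genes (1.23%). The CPM ranges of the groups did not overlap for 0 of the 10 members, against 392 genes (3.13%). Cebpe, the member left out by the filter, is given by its counts. Every member's adjusted p in edgeR was 0.99995, and the smallest unadjusted p was 0.275, for Cebpa. The log2 fold changes of the 9 members, 4 higher and 5 lower in KO, had a median of -0.0004, and those of all genes tested, 6428 higher and 6078 lower, a median of 0.01. With the description stem as a term in the edgeR fit, where KO 1 carries the contrast with WT, 0 members were called (smallest adjusted p = 0.9998) but 6 of the 9 had the opposite sign. These were Gfi1 at -0.93, Cebpb at 0.71, Mxd1 at 0.69, Cebpd at 0.56, Spi1 at 0.43 and Klf2 at 0.39. Runx1 stood at 0.84, Irf8 at 0.65 and Cebpa at 1.497.

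**Figure D2:**
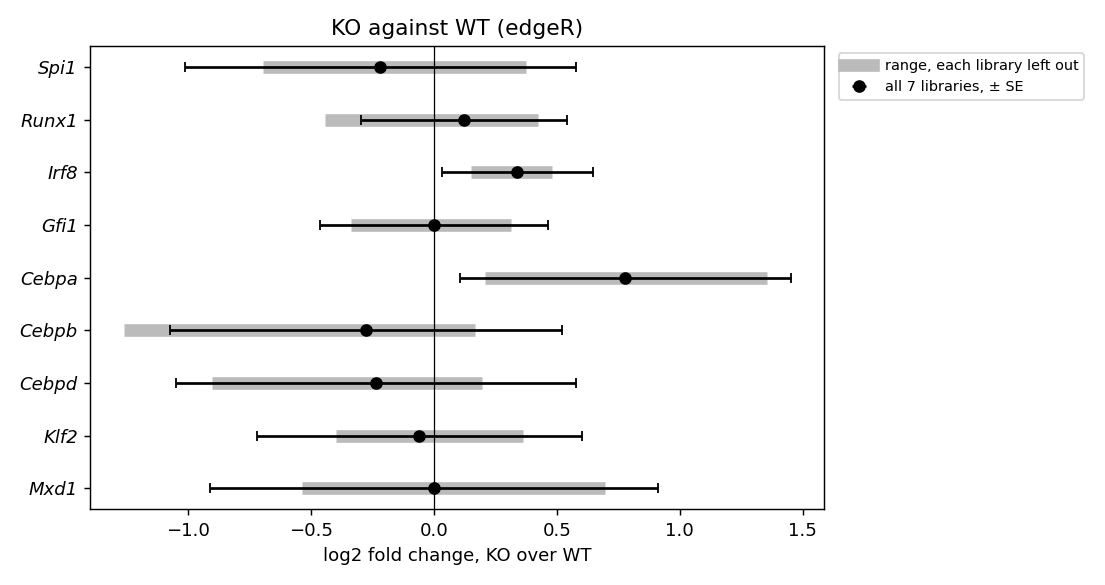
Log2 fold change of the 9 members tested, Alox15 KO over Alox15 WT, with its standard error (black) and the range of the estimates when each of the 7 libraries was left out in turn (grey). All standard errors but those of Irf8 and Cebpa cross 0, and the leave-out ranges cross 0 for the same 7 members.

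Of the factors that open the myeloid path, Spi1 was the most abundant. Spi1 (ENSMUSG00000002111, plus strand, chr2:91082390-91115756, GRCm38) encodes PU.1, an ETS-family factor needed for all myeloid cells and for B cells. It had 294.5, 219.9 and 50.4 CPM in KO and 452, 36.5, 147 and 241 CPM in WT. The lowest values were those of KO 3 and WT 2, and the 7 values spanned 12.4-fold. The means were 188 ± 125 CPM in KO (SD, n = 3) and 219 ± 176 CPM in WT (SD, n = 4), with a log2 fold change of -0.22 ± 0.79 (SE).

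Runx1 (ENSMUSG00000022952, minus strand, chr16:92601466-92826149) encodes the DNA-binding part of core binding factor, which is needed to form blood stem cells. Its level was 140 CPM in KO 1, 77.8 CPM in KO 2 and 37.4 CPM in KO 3, against 93.2, 63.7, 94.4 and 61.2 CPM in WT. The WT values lay inside the range of the KO values. WT spanned 1.54-fold and KO 3.74-fold, and the log2 fold change was 0.12 ± 0.42.

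Irf8 varied least. Irf8 (ENSMUSG00000041515, plus strand, chr8:120736358-120756694) encodes an interferon regulatory factor of monocytes, dendritic cells and B cells, and its loss in mice expands granulocytes. It had 84.6, 58.8 and 60.6 CPM in KO and 49.6, 35.6, 68.5 and 61.4 CPM in WT. The 7 values spanned 2.38-fold, KO 1 was the highest and WT 2 the lowest. Its within-group SD on the log2 scale, 0.37, was at the 19.4th percentile of all genes tested. The means were 68.0 ± 14.4 CPM in KO and 53.8 ± 14.4 CPM in WT, and the log2 fold change was 0.34 ± 0.31, with an unadjusted p of 0.2975 in edgeR. Monocyte and macrophage markers summed to 1319, 646 and 208 CPM in KO and 500.2, 176, 456 and 537 CPM in WT, with the highest sum in KO 1 and the lowest in WT 2, as for Irf8. B cell markers summed to 148, 68.3 and 74.4 CPM in KO and 5.08, 70.2, 119 and 46.9 CPM in WT. Dendritic cell markers summed to 218.5, 259.7 and 199 CPM in KO and 174, 374, 265 and 313 CPM in WT. Most of this last sum was Ccr9 in every library, at 138.4, 200.3 and 186.4 CPM in KO and 115.3, 343.4, 212.9 and 282.5 CPM in WT. Zbtb46, Xcr1, Siglech and Cd209a were left out by the filter on low counts, so the sum says little about dendritic cells. Of these lists only the first shared both the highest and the lowest library with Irf8, and the defining dendritic cell gene Clec9a had no count. Between these ends the order was not shared. KO 2, KO 3 and WT 3 had monocyte and macrophage sums of 646, 208 and 456 CPM, with Irf8 at 58.8, 60.6 and 68.5 CPM. The part of these cell types in the level of Irf8 was not tested.

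Gfi1 (ENSMUSG00000029275, minus strand, chr5:107716657-107726036) encodes a zinc-finger repressor needed for neutrophil formation, and it is also active in T cells. It had 13.6, 29.7 and 34.7 CPM in KO, against 13.2, 34.8, 35.2 and 20.4 CPM in WT. The lowest values were those of KO 1 and WT 1, the libraries with the most neutrophil marker counts in their groups, and KO 3 and WT 2 were among the highest. The group means, 26.0 ± 11.0 CPM in KO and 25.9 ± 10.9 CPM in WT, gave a log2 fold change of 0.0014 ± 0.46. That value depended on KO 2 and KO 3, since it was -0.93 with the description stem as a term and -0.998 on the 5 libraries that share a stem, neither of them called.

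Among the C/EBP factors, those of early and late granulocyte formation at rest were low. Cebpa (ENSMUSG00000034957, plus strand, chr7:35119293-35121928) encodes C/EBPα, which commits progenitors to the granulocyte path. It had 19.3, 11.3 and 4.48 CPM in KO, from 99, 37 and 23 counts, and 3.88, 5.01, 4.37 and 14.0 CPM in WT, from 13, 32, 22 and 53 counts. KO 1, KO 2 and WT 4 stood above the other 4 libraries, and the exact 95% interval of WT 4, 10.5 to 18.4 CPM, did not reach those of the other WT libraries, whose upper bound was at most 7.07 CPM. Intervals here cover counting error only. The means were 11.7 ± 7.39 CPM in KO and 6.82 ± 4.83 CPM in WT, and the log2 fold change, 0.78 ± 0.67, was the largest of any member tested.

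Markers of another cell type ran partly with Cebpa. All 12 monocyte and macrophage markers had a higher fitted level in KO, and none passed the test. Their sums, given above, had KO 1 and KO 2 on top and WT 4 as the highest of WT. The sums of WT 1 and WT 3, 500.2 and 456 CPM, were near the 537 CPM of WT 4, but their Cebpa was lower. All 12 had counts, and the smallest unadjusted p was that of the complement gene C1qb, a tissue macrophage marker, at a log2 fold change of 1.41 ± 0.63 (p of 0.0532 in edgeR, adjusted p = 0.99995). Their part in the level of Cebpa was not tested.

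Cebpe (ENSMUSG00000052435, minus strand, chr14:54710360-54712174) encodes C/EBPε, the factor of secondary granule genes in promyelocytes and myelocytes. It had 48, 2 and 2 counts in KO and 7, 2, 12 and 5 counts in WT, or 9.33, 0.613 and 0.390 CPM against 2.09, 0.313, 2.38 and 1.32 CPM. KO 1, with an exact 95% interval of 6.88 to 12.4 CPM, stood above every other library, whose upper bounds were at most 4.31 CPM, while KO 2 and KO 3 lay within the WT range. With every gene that had a count kept in the fit, its log2 fold change in edgeR was 1.15 (adjusted p = 0.9999), a fit in which KO 1 held 48 of the KO counts and the other KO libraries 2 each.

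Cebpb and Cebpd, the C/EBP genes of mature and stressed granulocytes, were above Cebpa and Cebpe in all 7 libraries. Cebpb (ENSMUSG00000056501, plus strand, chr2:167688915-167690418) encodes C/EBPβ, the factor of emergency granulopoiesis and of macrophage activation. It had 294, 121 and 29.0 CPM in KO and 299, 38.1, 233 and 148 CPM in WT. KO 3 and WT 2 were the lowest, and the 7 values spanned 10.3-fold. The means were 148 ± 135 CPM in KO and 179.5 ± 113 CPM in WT, with a log2 fold change of -0.28 ± 0.80.

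Cebpd (ENSMUSG00000071637, plus strand, chr16:15887286-15891031) encodes C/EBPδ, an acute-phase factor induced by cytokines. Its values were 150.5, 91.0 and 18.5 CPM in KO and 153, 14.4, 93.2 and 148 CPM in WT, again lowest in KO 3 and WT 2. The span was 10.6-fold and the log2 fold change -0.24 ± 0.81. The remaining C/EBP proteins, Cebpg, Cebpz and Ddit3, were all tested and 0 of 3 were called. Cebpg, a partner that lacks an activation domain of its own, had 48.8, 53.6 and 68.4 CPM in KO and 103, 69.8, 61.8 and 66.2 CPM in WT, with none of the drop of Cebpb and Cebpd in KO 3 and WT 2.

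Klf2 and Mxd1, factors of resting and mature cells, were the most abundant members. Klf2 (ENSMUSG00000055148, plus strand, chr8:72319033-72321656) encodes a Krüppel-like factor that keeps lymphocytes quiescent and restrains activation of myeloid cells. It had 816, 846 and 135 CPM in KO and 906, 204, 736 and 652 CPM in WT. The 5 libraries other than KO 3 and WT 2 lay within 652 to 906 CPM. The log2 fold change was -0.06 ± 0.66.

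Mxd1 (ENSMUSG00000001156, minus strand, chr6:86647042-86669161) encodes a repressor that competes with MYC for MAX. It had 813, 634 and 59.4 CPM in KO and 1108, 88.2, 422 and 391 CPM in WT, a span of 18.7-fold, the widest of the members tested. Its within-group SD of 1.76 on the log2 scale was at the 95.5th percentile of all genes tested. The means were 502 ± 394 CPM in KO and 502.5 ± 431 CPM in WT, with a log2 fold change of -0.0004 ± 0.91.

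Genes that overlap members limit some of these values, because the strand setting of the counting is not given in the sources used here. Tmem189, on the other strand, overlaps the start of Cebpb but not its 3′ end, and had 284, 144 and 61.4 CPM in KO and 243, 87.9, 166 and 115 CPM in WT. Gm44292 lies inside Mxd1 on the same strand and had 300.5, 584 and 26.9 CPM in KO and 544, 84.1, 233 and 115 CPM in WT, so its reads may belong to either gene. Spidr, on the other strand, overlaps Cebpd at its 3′ end and had 3.31 to 19.9 CPM. In WT 2 it had 8.93 CPM beside 14.4 CPM for Cebpd. Gm20388 overlaps Irf8 on the same strand at 16.4 to 39.5 CPM, and A430072P03Rik overlaps Gfi1 on the other strand at up to 2.76 CPM.

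Over the 7 libraries some members followed the neutrophil transcripts and others did not, a difference that rests largely on KO 3 and WT 2. KO 3 and WT 2 were the lowest libraries in CPM for 6 of the 10 members, namely Spi1, Cebpb, Cebpd, Cebpe, Klf2 and Mxd1. The place of Cebpe here rests on library depth, since KO 2 had 2 counts, as did KO 3 and WT 2. How many of all genes tested share this pattern was not counted. On the log2 CPM scale, relative to the mean over the 7 libraries, KO 3 was at -2.50 for Mxd1, -2.06 for Cebpb, -1.90 for Klf2 and -1.89 for Cebpd, beside -2.24 for the mature neutrophil markers. Gfi1 was at 0.52 in that library and Irf8 at 0.06. WT 1, at the other end, was at 1.71 for Mxd1 and 1.56 for Spi1, beside 1.68 for the neutrophil markers, while Gfi1 was at -0.85 and Cebpa at -0.86.

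**Figure D3:**
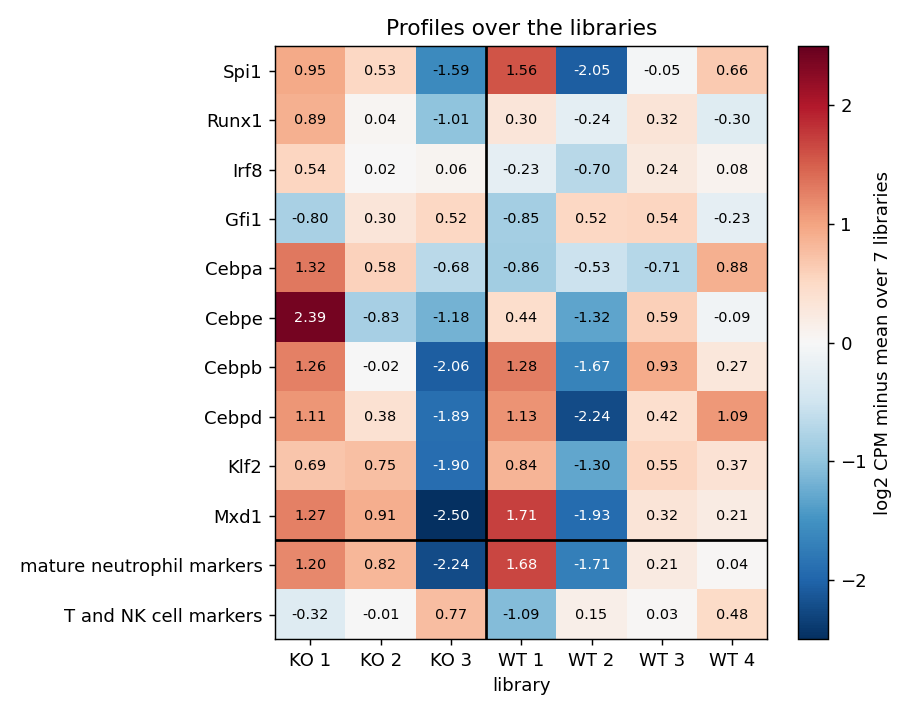
Log2 CPM of each factor minus its mean over the 7 libraries, with the mean of the mature neutrophil markers and of the T and NK cell markers below the line. Mxd1, Spi1, Cebpb, Cebpd and Klf2 are low in KO 3 and WT 2 like the neutrophil markers, and Gfi1 runs the other way.

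How far a member followed the neutrophil markers was described by the slope of its log2 CPM on the mean log2 CPM of the 12 markers, a measure chosen after the values were seen. Over the 7 libraries the slope was 1.09 for Mxd1, 0.91 for Cebpd, 0.88 for Cebpb, 0.87 for Spi1, 0.73 for Klf2 and 0.61 for Cebpe. It was 0.34 for Runx1, 0.23 for Cebpa, 0.11 for Irf8 and -0.32 for Gfi1. All genes tested had a median slope of -0.01 and quartiles of -0.19 and 0.22. The points share library, depth and composition, and a slope here rests largely on KO 3 and WT 2. Without them the slope was 0.93 for Mxd1, 0.72 for Spi1, 0.57 for Cebpe, 0.50 for Cebpb, 0.37 for Runx1, 0.25 for Klf2, 0.22 for Cebpd, -0.10 for Irf8, -0.25 for Cebpa and -0.65 for Gfi1, against quartiles of -0.40 and 0.40 for all genes tested. Mxd1, Spi1, Cebpe and Cebpb lay above the upper quartile with and without these libraries. Cebpe, left out by the low-count filter, had 48 counts in KO 1 and 2 to 12 elsewhere, so its slopes are uncertain. Klf2, Cebpd, Runx1 and Cebpa did so only over the 7 libraries, and Gfi1 lay below the lower quartile in both.

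**Figure D4:**
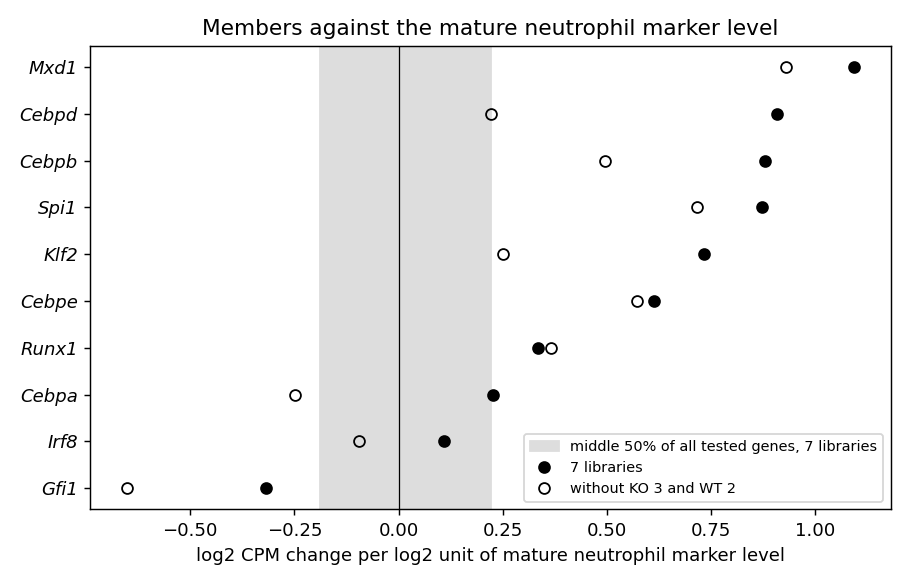
Slope of each factor's log2 CPM on the mean log2 CPM of 12 mature neutrophil markers, over 7 libraries (filled) and without KO 3 and WT 2 (open). Mxd1 has the highest slope at 1.09 and 0.93, Gfi1 the lowest at -0.32 and -0.65, and the grey band spans the quartiles of all genes tested over 7 libraries.

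With the neutrophil marker level as a term in the edgeR fit, the standard error of every member tested became smaller, and no member was called. For members with a high slope on that level, a smaller error follows from the slope and is no further result. Mxd1 had a log2 fold change of -0.05 ± 0.22, against a standard error of 0.91 without the term. Spi1 had -0.02 ± 0.30, Cebpb -0.36 ± 0.30, Cebpd -0.28 ± 0.38 and Klf2 -0.20 ± 0.26. Cebpa had 0.61 ± 0.64 and Irf8 0.36 ± 0.27, close to their values without it. Runx1 had 0.01 ± 0.28 and Gfi1 -0.03 ± 0.37, against standard errors of 0.42 and 0.46 without the term. Every adjusted p of a member was 0.99993.

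Gfi1 was lowest where neutrophil transcripts were highest, and T and NK cell and proliferation transcripts ran partly with it. The T and NK cell markers summed to 408, 509 and 1042 CPM in KO and 339, 727, 531 and 726 CPM in WT. The 10 proliferation genes, among them Mki67 and Top2a, summed to 1617, 2332 and 2813 CPM in KO and 1328, 2823, 2305 and 2720 CPM in WT. Both sums were lowest in KO 1 within KO and in WT 1 within WT, as Gfi1 was. WT 4 differed, since its sums were near those of WT 2 but its Gfi1 was 20.4 CPM against 34.8 CPM in WT 2. WT 3 had the highest Gfi1, 35.2 CPM, with sums of 531 and 2305 CPM, below those of WT 2 and WT 4. The B cell markers did not follow Gfi1 in KO, where their highest sum, 148 CPM, was in KO 1. The part of these cell types in the level of Gfi1 was not tested.

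The genes with the profile most like each member's were found among 8667 named genes (8668 for Cebpe) whose mean log2 CPM reached 3, by the root mean square difference of the centred log2 CPM over the 7 libraries. For Mxd1 they were Ltb4r1, the leukotriene B4 receptor of granulocytes, at 0.10, Ubash3b and Samhd1. For Spi1 they were Zyx at 0.11, Slfn2 and Alox5ap, the protein that presents arachidonate to 5-lipoxygenase. Cebpd lay closest to Tyrobp at 0.22, Selplg and the calprotectin gene S100a8, and Cebpb to Prr5l at 0.17, Chil1 and the complement receptor gene C5ar1. Klf2 lay closest to Apbb1ip at 0.17, Rgs2 and Mylip, and Runx1 to Capza2 at 0.11, Ptbp3 and Ppp2ca. Gfi1 had Setd6 at 0.15, Endod1 and Zcwpw1, and Irf8 had Zbtb17 at 0.16, Cept1 and Hist3h2a. The low members had looser matches, with Tmem106a at 0.31, Elmod2 and the lipoprotein lipase gene Lpl for Cebpa, and H2-DMb1 at 0.30, Cxcl16 and Spred1 for Cebpe. Among the members themselves, Cebpd and Spi1 were the closest pair at 0.33, and Gfi1 and Mxd1 the farthest at 1.95.

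The promoters of Mxd1, Klf2 and Cebpb, which were lowest in KO 3 and WT 2, are shown with that of Gfi1, which ran the other way. RefSeq sequences (GRCm38.p6) from 250 bases before to 50 after a gene start were matched for 7 of the 10 members, and Cebpd, Cebpe and Spi1 had no entry. Capitals mark every match, on either strand, to the CCAAT box motif CCAAT, the GC box GGGCGG, the TATA box TATAAA, the C/EBP motif TTNCNNAA, the ETS motif GGAAGT, the RUNX motif TGTGGT, the CRE core TGACG and the E-box CACGTG. Each sequence reads 5′ to 3′ on the strand of its gene, in the order Mxd1 (minus strand, chr6:86669110-86669409), Klf2 (plus strand, chr8:72318812-72319111), Cebpb (plus strand, chr2:167688665-167688964) and Gfi1 (minus strand, chr5:107725756-107726055).
Mxd1: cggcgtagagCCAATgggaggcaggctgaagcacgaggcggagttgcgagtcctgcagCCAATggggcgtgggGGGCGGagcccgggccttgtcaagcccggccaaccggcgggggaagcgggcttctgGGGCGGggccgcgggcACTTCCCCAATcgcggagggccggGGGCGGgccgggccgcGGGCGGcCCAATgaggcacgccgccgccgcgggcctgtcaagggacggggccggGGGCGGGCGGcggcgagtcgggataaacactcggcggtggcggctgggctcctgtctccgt
Klf2: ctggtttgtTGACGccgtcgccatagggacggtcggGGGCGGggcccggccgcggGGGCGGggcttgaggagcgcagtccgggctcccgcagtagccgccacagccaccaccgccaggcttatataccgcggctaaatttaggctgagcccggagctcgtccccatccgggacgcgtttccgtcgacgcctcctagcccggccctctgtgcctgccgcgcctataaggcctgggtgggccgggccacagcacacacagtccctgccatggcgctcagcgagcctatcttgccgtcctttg
Cebpb: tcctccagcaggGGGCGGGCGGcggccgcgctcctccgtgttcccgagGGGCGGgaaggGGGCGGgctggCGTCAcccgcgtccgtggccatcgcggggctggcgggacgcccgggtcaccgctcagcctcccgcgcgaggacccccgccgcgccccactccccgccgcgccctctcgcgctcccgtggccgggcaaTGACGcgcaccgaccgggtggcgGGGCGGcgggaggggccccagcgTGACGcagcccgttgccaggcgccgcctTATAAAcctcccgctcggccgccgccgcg
Gfi1: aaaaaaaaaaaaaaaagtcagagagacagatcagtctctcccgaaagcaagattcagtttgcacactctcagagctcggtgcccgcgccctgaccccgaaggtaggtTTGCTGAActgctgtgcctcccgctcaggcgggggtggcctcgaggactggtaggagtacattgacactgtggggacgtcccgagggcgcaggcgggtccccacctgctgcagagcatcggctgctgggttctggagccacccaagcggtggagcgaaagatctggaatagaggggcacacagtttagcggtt

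The window of Mxd1 held 6 GC boxes, 4 CCAAT matches, 1 C/EBP motif and 1 ETS motif, of which the ETS and C/EBP motifs and a CCAAT match overlap in ACTTCCCCAAT. GGGCGGGCGG holds a pair of overlapping GC boxes, as does the same string in Cebpb. Klf2 had 2 GC boxes and 1 CRE core, and Cebpb 5 GC boxes, 3 CRE cores and 1 TATAAA. The Gfi1 window held 1 C/EBP motif and no match to the other 7 motifs. A further Gfi1 window, not shown, held no match to any motif. GC boxes were not particular to the members that were lowest in KO 3 and WT 2, since 1 Irf8 window, also not shown, held 3. Of 32851 mouse promoters of the same length, 35.7% held GGGCGG, 37.4% CCAAT, 40.7% TTNCNNAA, 23.8% GGAAGT, 20.8% TGACG, 16.8% TGTGGT, 13.6% TATAAA and 7.15% CACGTG. A match is a string of letters and does not show binding.

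None of 4 ratios of factors within a library passed the test between genotypes. The log2 ratio of Cebpb to Cebpa, the emergency and steady-state factors, was 3.90, 3.37 and 2.58 in KO and 6.11, 2.82, 5.60 and 3.36 in WT. Its mean was 3.28 ± 0.66 in KO and 4.47 ± 1.63 in WT, a difference of -1.19 (exact two-sided permutation p = 0.3429, adjusted p = 0.6571 over 4 ratios). The 35 ways to choose 3 of 7 libraries allow a smallest p of 0.0286. KO values lay within the WT range but for KO 3, which was the lowest.

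The log2 ratio of Cebpb to Cebpe averaged 5.64 ± 1.06 in KO and 6.33 ± 0.50 in WT, a difference of -0.69 (exact permutation p = 0.2571). Cebpe had 2 counts in KO 2, KO 3 and WT 2, so this ratio depends there on depth and on the prior count of 2. With a prior count of 0.5 the difference was -0.63 (exact permutation p = 0.4), and without KO 2 it was -1.30 (exact permutation p = 0.0667). That of Spi1 to Irf8 was 1.80, 1.90 and -0.26 in KO and 3.18, 0.04, 1.10 and 1.96 in WT. In KO 3 Irf8 thus exceeded Spi1, and in WT 2 the levels were about equal, while Spi1 was the higher in the other 5 libraries. Its difference of -0.43 had an exact permutation p of 0.6571. The log2 ratio of Mxd1 to Myc, the gene of the activator that MXD1 opposes, was 8.30, 6.60 and 3.50 in KO and 7.58, 3.06, 5.05 and 5.42 in WT, a difference of 0.86 (exact permutation p = 0.6). Each adjusted p was 0.6571.

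**Figure D5:**
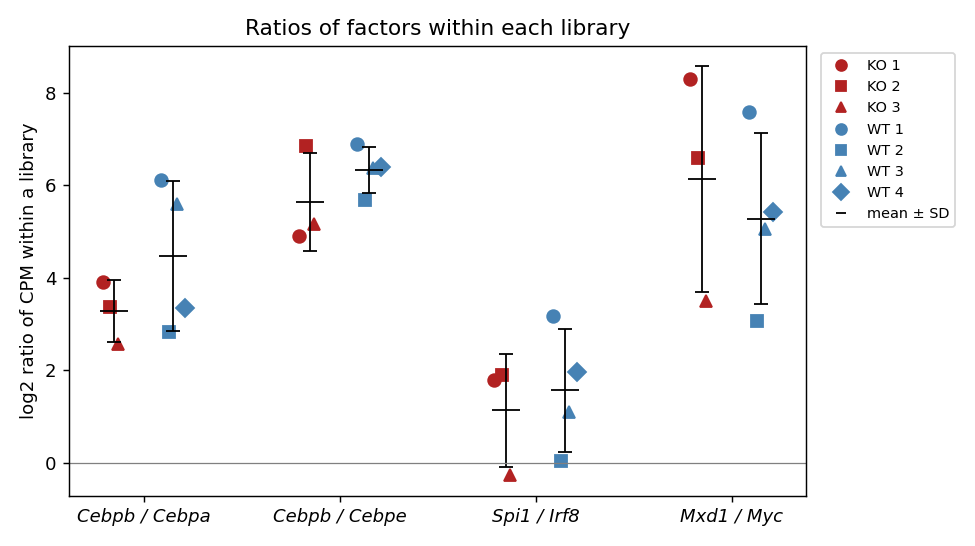
Log2 ratio of CPM between pairs of factors within each library, Alox15 KO (red) left of Alox15 WT (blue), with mean ± SD (n = 3 and n = 4). The groups overlap for all 4 ratios, and Mxd1 exceeded Myc in every library.

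Families around the members did not pass the test either. Of the MYC and MXD network 0 of 9 tested genes were called, with 4 higher and 5 lower in KO. Myc, the growth-promoting partner of MAX, had 2.14, 6.13 and 4.87 CPM in KO and 5.38, 10.2, 12.3 and 8.74 CPM in WT, with groups that overlapped and a log2 fold change of -1.07 ± 0.60. Of other RUNX, ETS and core binding factors 0 of 10 were called, 7 higher and 3 lower in KO. Cbfb, the partner that stabilises RUNX1 on DNA, averaged 62.8 ± 5.92 CPM in KO and 99.9 ± 33.2 CPM in WT, at an unadjusted p of 0.0752 in edgeR. Of other IRF factors 0 of 7 were called, of other KLF factors 0 of 11, and of other regulators of blood cell fate 0 of 21, with 14 of these higher and 7 lower.

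Genes known as targets of the members gave the same count. Of 14 granule and calprotectin genes bound by C/EBP factors in neutrophil precursors, 10 were tested and 0 were called. Of these 10, 9 were higher and 1 was lower in KO. Their median log2 fold change was 0.46, beside 0.01 over all genes tested. Chil3, a secreted chitinase-like protein of neutrophils and macrophages, had the smallest unadjusted p at 0.125 in edgeR (log2 fold change 1.90 ± 1.12). Elane, the neutrophil elastase gene of promyelocytes, had no count in any library. The summed level of the list was 21420, 12790 and 2203 CPM in KO and 24110, 2313, 9634 and 11170 CPM in WT, again lowest in KO 3 and WT 2. Most of this sum came from the calprotectin genes S100a8 and S100a9 in every library. They had 10490 and 11610 CPM in WT 1 and 7695 and 11820 CPM in KO 1. Of 14 receptor and adhesion genes driven by PU.1 and C/EBP factors, all were tested, 7 were higher and 7 lower, and 0 were called, with a median of 0.09. Of 4 KLF2 target genes known from lymphocytes 0 were called. Ccr7, the lymph node homing receptor, had 6.22, 5.51 and 4.67 CPM in KO and 2.69, 16.8, 21.9 and 10.6 CPM in WT, with a log2 fold change of -1.25 ± 0.67 (unadjusted p of 0.0936 in edgeR).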

How the data were processed

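RNA from 7 libraries was measured by 3′ tag sequencing of polyA RNA, per the labels' protocols (column purification, DNase, QuantSeq). The authors deposited 1 table of whole-number counts per Ensembl gene. The submitters' processing notes name RSEM 1.2.3, DESeq2 and mm10 without saying what each was used for. RSEM estimates can be rounded, so the counts may be rounded estimates. The strand setting, annotation release and molecular identifiers are not given in the sources used here.

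Groups came from the sample titles. The test was edgeR 4.0.16 in R 4.3.3 (filterByExpr by group, TMM, robust quasi-likelihood F test, Benjamini-Hochberg over the 12506 genes kept, call at an adjusted p under 0.05), with no covariate. These genes held 99.6% of the counts. CPM used TMM library sizes and log2 CPM a prior count of 2. SE came from the F statistic. Ratios were compared by exact permutation. Symbols were found for 51596 genes, and positions are from GENCODE M21 (GRCm38, the build of mm10), 1-based. All members were named in every library, from each list the tested genes with the smallest unadjusted p, and per member the 3 closest profiles.

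Alternatives were DESeq2 1.42.0, limma-voom 3.58.1 with quality weights, RLE factors, other filters, libraries left out, and the replicate number, description stem or neutrophil marker level as a term. The members, lists and alternatives were chosen with earlier results of these data known, and those results already showed KO 3 and WT 2 as low in neutrophil transcripts. The slopes and the fit on the 5 libraries that share a description stem were added after seeing these data.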

Additional observations from a re-analysis of the deposited data

Results flagged for a closer look

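Cebpa stood at 14.0 CPM in WT 4, against 3.88 to 5.01 CPM in the other WT libraries. On the CPM scale the gap to the nearest of these was 0.889 of the whole range of WT, above Dixon's critical value for 4 samples. Chance gives about 1 such value in 20 groups, and the WT group was examined for all 10 factors. On the log2 CPM scale WT 4 was at 3.855 and the other WT libraries at 2.111 to 2.446. The gap is a smaller part of the range there, so the flag is given for the CPM scale only. WT 4 was also the WT library with the highest sum of monocyte and macrophage markers, 537 CPM. WT 1 and WT 3 were near it at 500.2 and 456 CPM, with Cebpa at 3.88 and 4.37 CPM. The part of these markers in the level of Cebpa was not tested.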

How the results depend on the processing

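Over 18 settings, the main one included, the count of members called stayed 0, and no member had an unadjusted p under 0.05. DESeq2 called 1 gene, where edgeR called 0, and every other setting called 0. Of 153 member values under the alternatives, 42 changed sign and 111 did not, none past the threshold. Gfi1 and Mxd1 were near 0 in the main fit, at 0.0014 and -0.0004, so a small shift changes their sign. Leaving out 1 library at a time moved the log2 fold change of Cebpb over -1.26 to 0.17, Cebpd -0.90 to 0.20, Spi1 -0.70 to 0.37, Klf2 -0.40 to 0.36, Mxd1 -0.54 to 0.70, Gfi1 -0.34 to 0.31 and Runx1 -0.44 to 0.42, while Cebpa kept its sign over 0.21 to 1.35 and Irf8 over 0.15 to 0.48. The difference in the Cebpb to Cebpa log2 ratio moved over -1.74 (without WT 2) to -0.64 (without WT 1), that of Cebpb to Cebpe over -1.30 (without KO 2) to -0.33 (without KO 1), that of Spi1 to Irf8 over -0.94 to 0.28 and that of Mxd1 to Myc over -0.23 to 2.17. With limma-voom the values were 0.25 for Cebpd, 0.49 for Spi1, -0.25 for Gfi1, 0.26 for Klf2 and 0.59 for Mxd1. With no filter Gfi1 was at -0.0093, and with the neutrophil marker term at -0.0306. Without WT 2 and KO 3 Gfi1 was at -0.14, Klf2 at 0.075 and Mxd1 at 0.14. With the description stem as a term Cebpb was at 0.71, Cebpd 0.56, Spi1 0.43, Gfi1 -0.93, Klf2 0.39 and Mxd1 0.69. On the 5 libraries that share a stem, chosen after seeing the data, with the 1 KO library assumed to vary like WT, Cebpb was at 0.67, Cebpd 0.52, Spi1 0.39, Gfi1 -0.998, Klf2 0.34 and Mxd1 0.66. The cause of these sign changes was not tested. Same-numbered libraries deviated with r of 0.35, -0.23 and -0.18, while KO 3 and WT 2 had r of 0.47. From 3 such pairs, r cannot decide whether libraries of the same number were handled together. With the replicate block Cebpd was at 0.0692, Spi1 0.0203, Gfi1 -0.0673 and Runx1 -0.14, and 0 genes were called. For Cebpe, 2 counts in each of 3 libraries limit any comparison.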
